A study of Mus musculus with 16 samples.

Results

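The small leucine-rich proteoglycans are described here through 8 genes, decorin (Dcn), biglycan (Bgn), asporin (Aspn), lumican (Lum), fibromodulin (Fmod), prolargin (Prelp), osteomodulin (Omd) and osteoglycin (Ogn). They were taken by name from a deposited table of 36950 genes, in which each of the 8 has 1 row. The study profiled single cells from the left ventricle of male mice with transverse aortic constriction (TAC), an operation that narrows the aorta and raises the pressure load on the heart. Its 16 mice fall into 5 stages named in weeks, 0w (2 mice), 2w (2 mice), 5w (7 mice), 8w (3 mice) and 11w (2 mice), and whether the 0w mice had surgery is not stated. Strain and age are not stated either. Per the labels' protocols, one digestion, with a protease and collagenase II, was meant to enrich cardiomyocytes and another, with a papain enzyme, to enrich the remaining cells. The authors' annotation names cardiomyocytes (CM), endothelial cells (EC), fibroblasts (FB), macrophages (MP), T cells (T) and a type abbreviated GN, and splits the fibroblasts into subclusters FB1 to FB10.

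These proteoglycans are secreted proteins with a core of leucine-rich repeats, most of which carry chondroitin, dermatan or keratan sulphate chains. They sit on collagen fibrils, where they steer the width and spacing of the fibrils, and several also bind growth factors or cell-surface receptors. In the heart they are known mainly as products of fibroblasts and as parts of the scar and of the interstitial matrix.

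The family falls into classes by sequence. Dcn, Bgn and Aspn belong to class I, Lum, Fmod, Prelp and Omd to class II, and Ogn to class III. Several members are chromosomal neighbours in the mouse (RefSeq positions, GRCm38.p6). Dcn (chr10:97479500-97518163) lies 47.3 kb before Lum (chr10:97565501-97572703), and Prelp (chr1:133910304-133930102) lies 107.2 kb before Fmod (chr1:134037254-134048280). Aspn (chr13:49544443-49567565), Omd (chr13:49582462-49592612) and Ogn (chr13:49608015-49624501) follow each other at gaps of 14.9 and 15.4 kb, and Bgn stands by itself (chrX:73483601-73495936). The gene Cenpp (chr13:49464025-49652950) spans Aspn, Omd and Ogn, and how reads from shared positions were assigned is not stated. Cenpp had 54 unique molecular identifiers (UMIs) in all fibroblasts, or 0.814 CPM, a gene's UMIs scaled to a fixed total of non-mitochondrial UMIs.

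The promoters of Aspn, Omd and Ogn are shown because these neighbours differ in the results that follow, Aspn and Ogn being detected in a large share of fibroblasts and Omd in few. Each line gives the 250 bases before the RefSeq start on the plus strand, in lower case. Capitals mark matches, on either strand, to TATAAA, the core of the TATA box, or to GGAATG, the core bound by TEAD factors.
Aspn, chr13:49544193-49544442: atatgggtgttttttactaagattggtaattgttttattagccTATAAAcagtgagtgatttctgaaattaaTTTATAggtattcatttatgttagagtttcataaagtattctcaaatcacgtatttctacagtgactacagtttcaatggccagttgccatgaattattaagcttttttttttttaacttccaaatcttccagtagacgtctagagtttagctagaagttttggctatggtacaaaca
Omd, chr13:49582212-49582461: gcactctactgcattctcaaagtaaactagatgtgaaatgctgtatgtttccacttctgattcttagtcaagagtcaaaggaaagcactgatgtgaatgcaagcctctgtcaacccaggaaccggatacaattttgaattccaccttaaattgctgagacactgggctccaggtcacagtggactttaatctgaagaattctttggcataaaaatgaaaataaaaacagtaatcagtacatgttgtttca
Ogn, chr13:49607765-49608014: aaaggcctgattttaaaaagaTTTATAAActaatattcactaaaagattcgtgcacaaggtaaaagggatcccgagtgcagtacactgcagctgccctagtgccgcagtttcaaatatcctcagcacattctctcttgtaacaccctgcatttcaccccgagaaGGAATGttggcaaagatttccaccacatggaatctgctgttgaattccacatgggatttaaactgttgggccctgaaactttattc
TATAAA matched at 2 places in the Aspn window and at 2 overlapping places in the Ogn window, and 12.4% of all 32851 promoter windows of this length hold it. In Aspn the matches lay 207 to 202 bases before the start on the gene's strand and 178 to 173 on the opposite strand. In Ogn they lay 227 to 222 bases before the start on the gene's strand and 229 to 224 on the opposite strand. Whether any of them acts as a TATA box was not tested. GGAATG matched at 1 place in the Ogn window, and 12.6% of all windows hold it. The Omd window held neither. The motifs TGANTCA (AP-1), GTCTAGAC (SMAD) and CATCTG (an E-box) were also searched on both strands and matched in none of these 3 windows, against 6.75%, 0.167% and 14.4% of all windows. The guanine and cytosine content was 30% for Aspn, 38.4% for Omd and 42% for Ogn.

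The table holds 11492 cells, of which 1775 were annotated FB, and its values are counts of UMIs. Of these, 56.0% came from mitochondrially encoded genes, which were left out of every level below. Cells came from 12 plates, lettered A to L in order of stage, and each stage had plates of its own except plate E, which held 1 mouse of 5w and 1 of 8w. Stage and plate therefore cannot be told apart in most comparisons. Cell names shared between libraries numbered 0. The mouse was the replicate, and the 12 mice with at least 10 FB cells entered the fibroblast comparisons, with 29 to 338 cells and 806743 to 15384224 non-mitochondrial UMIs each. Of the 8 fibroblast markers Pdgfra, Col1a1, Col1a2, Col3a1, Tcf21, Dpt, Mfap5 and Pi16, none was at 0 in FB cells, and their summed level was 6191 to 17809 CPM per mouse.

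All 8 genes had their highest pooled level in the cells annotated FB. Pooled levels are CPM of non-mitochondrial UMIs over all cells of a type. The types were drawn from these same cells, so the levels are a description with no test. Dcn, which binds collagen I and holds TGF-beta, had 15105 CPM in FB cells, against 1635 in EC, 1550.2 in MP, 1233 in T, 974 in GN and 1086 in CM. At least 1 Dcn UMI was seen in 99.5% of FB cells (95% exact binomial interval 99 to 99.8%) and in 78.1% of T cells, a type not known to make it, at median depths of 18335 and 14766 non-mitochondrial UMIs per cell. After every cell was thinned to 1000 UMIs, the shares were 97.4% of FB cells and 25.4% of T cells, with 23 FB cells and 0 T cells too shallow to enter. Intervals cover counting error only. Detection of Dcn therefore did not separate the types in full-depth cells, while its level did. In mice with at least 10 cells of both types, Dcn was higher in FB than in EC in 11 of 11, than in MP in 12 of 12, than in T in 11 of 11 and than in CM in 10 of 10.

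Bgn, a close relative of Dcn that can also engage Toll-like receptors, had 615 CPM in FB cells (323 to 1999 over 12 mice), against 112 in EC, 76.9 in MP, 55 in T, 101 in GN and 76.7 in CM. Aspn, which lacks the glycosaminoglycan chain of its class and binds collagen and TGF-beta, had 778 CPM in FB cells (269 to 1439 over 12 mice), against 96.4 in EC, 98.9 in MP, 147 in T, 26.1 in GN and 78.5 in CM. A single T cell held 42.3% of the Aspn UMIs of that type. In paired mice Bgn was higher in FB than in EC, MP, T, GN and CM in every mouse, and Aspn in every mouse except 1 of 11 against T.

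Lum, a keratan sulphate proteoglycan of collagen fibrils, had 1101 CPM in FB cells (281 to 2213 over 12 mice), against 109 in EC, 137 in MP, 39.8 in T, 40.4 in GN and 91.1 in CM. Prelp, which links collagen to the heparan sulphate of basement membranes, had 325 CPM in FB cells (189 to 555 over 12 mice), against 62.5 in EC, 57.6 in MP, 30.6 in T, 113 in GN and 38.8 in CM. Ogn, a class III member first known from bone, had 1177 CPM in FB cells (365 to 1888 over 12 mice), against 111 in EC, 157 in MP, 50.5 in T, 34.1 in GN and 142 in CM. Among FB cells thinned to 1000 UMIs, 39.4% had a UMI of Lum, 18.7% of Prelp and 37.9% of Ogn. In thinned T cells the shares were 3.14%, 1.49% and 2.48%, and in thinned CM cells 4.3%, 1.91% and 7.19%. For all 3 genes the FB level was the higher one in every mouse that had at least 10 cells of both types.

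Fmod, which controls the width of collagen fibrils in tendon, and Omd, known from bone, were found in few FB cells. Fmod had 14 CPM in FB, against 3.48 in EC, 0.628 in MP, 2.24 in T, 0.968 in GN and 0.726 in CM, and a UMI of it was present in 3.94% of FB cells and 1.49% of T cells. Omd had 37.7 CPM in FB, against 8.38 in EC, 3.36 in MP, 0.91 in T, 0.242 in GN and 1.71 in CM, with a UMI in 6.2% of FB cells and 0.165% of T cells. Both rested on few cells, since a single FB cell gave 16.8% of the Fmod UMIs and 25.5% of the Omd UMIs of the type. Fmod was higher in FB than in MP in 11 of 12 mice and than in T in 9 of 11. Omd was higher in FB than in EC in 10 of 11 mice and than in CM in 9 of 10. Where the other type had no UMI, any FB UMI counted as higher. T cells had a UMI of Fmod in 4 of the 11 mice, where the median ratio of FB to T was 1.02 (0.325 to 12.2). MP cells had one in 7 of the 12 mice.

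The ratio of the FB level to that of another type differed between genes and types. Against EC, the median ratio over mice was 7.77 for Dcn, 4.07 for Bgn, 7.35 for Lum, 5.48 for Prelp and 10.6 for Ogn. Against CM, it was 13.3 for Dcn, 7.95 for Bgn, 11.1 for Lum, 9.93 for Prelp and 7.23 for Ogn. Free RNA and mixed wells can add UMIs of these genes to cells that do not express them, and their part in the levels of the other types was not tested.

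**Figure D1:**
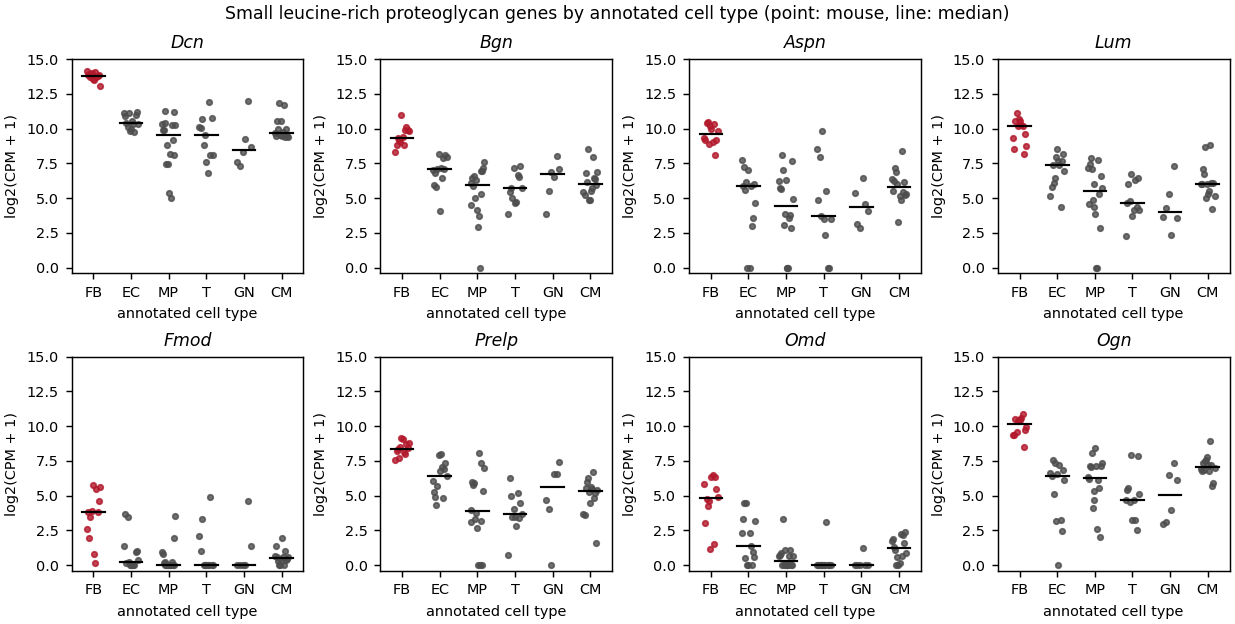
Level of each gene per mouse and annotated cell type, as log2 of CPM of non-mitochondrial UMIs plus 1, for mice with at least 10 cells of the type; points are mice and lines medians. The FB points of Dcn, from 8656 to 17697 CPM, sit above those of every other type, while Fmod and Omd lie near 0 in most types outside FB.

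Across the fibroblast subclusters, most members followed one another only in part. The subclusters were built by the authors on these cells, so their levels are again given as a description. Dcn was highest in FB4, with 19783 CPM, followed by FB2 with 15951, and lowest in FB7, with 4073. Ogn was also highest in FB4, at 1696 CPM, and lowest in FB7, at 449. Over the 7 mice with at least 10 cells in FB4, Ogn ran from 311 to 2865 CPM. Pooled Aspn was highest in FB3, at 1672 CPM, where 10 cells held 58.0% of its UMIs. Over mice with at least 10 cells, Aspn ran from 259 to 2396 CPM in the 6 of FB3. It stood at 1472 and 951 CPM in the 2 of FB5, within that range. Bgn was highest in FB3 and FB5, at 908 and 862 CPM, and over mice with at least 10 cells it ran from 705 to 1542 CPM in the 6 of FB3 and stood at 2351 and 728 CPM in the 2 of FB5. Lum was highest in FB5 and FB3, at 1553 and 1504 CPM, which differ by less than the range over mice, and pooled Prelp was highest in FB5, at 719 CPM. By mouse, Prelp stood at 627 and 571 CPM in FB5 and at 359 to 1534 CPM in the 4 mice of FB6, so the order of these 2 subclusters is that of pooled cells alone. Omd was highest in FB2, at 93.7 CPM, but a single cell held 53.1% of those UMIs.

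Several subclusters came wholly or for the greater part from 1 stage or plate. FB7 came entirely from plate K and from 11w, and 80.5% of its 133 cells from 1 mouse. FB10 came for 97.3% from plate L, also of 11w, and FB5 for 71.1% from plate F of 5w. FB6 came for 62.2% from 11w and 60.3% from plate K, and FB3 for 60.7% from 11w. FB4, highest for Dcn and Ogn, came for 54.5% from plate E, which held 5w and 8w. FB7 and FB10 were shallow, with median depths of 2348 and 2014 non-mitochondrial UMIs per cell, against at least 11866 in each of the others. Cells thinned to 1000 UMIs gave the same highest subcluster for all 8 genes, and the same lowest one for all except Prelp, where FB7 took the place of FB1 (for Fmod, several subclusters held no thinned UMI). Summed cardiomyocyte markers stood at 30594 CPM in FB8 and 12627 in FB7, where Dcn was 7471 and 4073 CPM, and at 991 to 7028 in the other 8. Their part in the lower Dcn level was not tested.

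FB9 had the highest pooled Fmod level of the 10 subclusters. Its 48 cells, from 13 mice, had 278 CPM of Fmod, and the other 9 subclusters had 0.054 to 33.4. The pooled level leaned on few cells. All 212 Fmod UMIs of the first 5w mouse lay in FB9, and 1 cell held 73.6% of them. In the second 11w mouse, the only one with at least 10 FB9 cells, FB9 had 86.7 CPM of Fmod and FB6 had 72.2. A Fmod UMI was present in 25 of the 48 FB9 cells, or 52.1% (95% exact binomial interval 37.2 to 66.7%), and in 45 of the 1727 other FB cells, at median depths of 27092 and 17985 UMIs. FB9 held 54.5% of all Fmod UMIs of the fibroblasts. In the same cells Lum had 27.5 CPM and Aspn 50, in both cases the lowest of the 10 subclusters. Omd had 1.65 CPM there and was detected in 6.25% of FB9 cells, beside 6.2% of all FB cells. Dcn was 6251 CPM there and Prelp 302.

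The markers of FB9 departed from those of the other fibroblasts. Among the mesothelial markers, Msln had 1206 CPM in FB9 and 1.58 in the other FB cells, Upk3b 1665 and 4.85, and Upk1b 1207 and 1.91. All 6 markers of that list (the others being Wt1, Krt19 and Lrrn4) were detected in FB9, together at 5158 CPM, against 8.37 to 112 in the other 9 subclusters. Each of the 48 cells had a UMI of at least 1 of them. All 8 fibroblast markers had a lower level in FB9 than in the other FB cells, but by unequal amounts. Dpt and Mfap5, both matrix proteins, were at 80.2 and 489 CPM in FB9, against 1035 and 4651 CPM in the other FB cells, and Tcf21, a transcription factor, was at 12.1 CPM, against 107 CPM. Pi16 was at 159.8 CPM, against 473 CPM, and the collagen gene Col1a1 at 144 CPM, against 388 CPM. The collagen genes Col1a2 and Col3a1 were closer, at 908 and 1389 CPM in FB9, against 1102 and 1807 CPM, and Col3a1 was detected in 95.8% of FB9 cells, against 81.1% of the others. Pdgfra, a growth factor receptor, was at 172 CPM in FB9, against 252 CPM, and detected in 10.4% of FB9 cells, against 41.3% of the others. FB9 is therefore referred to only by its number.

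Fmod-positive cells were not confined to FB9. Of the 45 Fmod-positive FB cells outside it, 9 had a UMI of a mesothelial marker, or 20%, against 11.5% of all FB cells outside FB9. FB6 followed FB9 in level, with 33.4 CPM and a UMI in 9.62% of its 156 cells, but 220 of its 227 Fmod UMIs came from the second 11w mouse, and without that mouse it had 1.86 CPM. Ranked by the correlation of log2 CPM over the 12 mouse sums, the genes most like Fmod were Upk3b (r = 0.917), Upk1b (r = 0.876) and Msln (r = 0.840), which are 3 of the 6 mesothelial markers. This is a description over 12 mice that also differ in plate and stage. The number of FB9 cells was 0 to 11 per mouse.

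**Figure D2:**
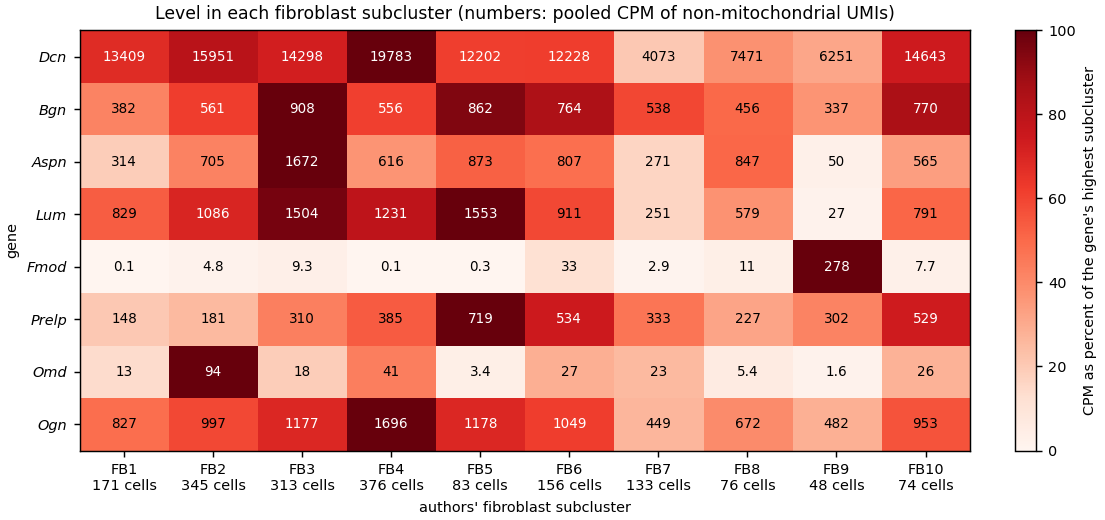
Pooled CPM of each gene in the 10 fibroblast subclusters named by the authors; colour gives the level as a percent of that gene's highest subcluster and numbers give the CPM. Fmod reaches 278 CPM in FB9, where Lum and Aspn are at their lowest, and Dcn is lowest in FB7.

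The comparisons by stage ask how fibroblast levels differed after the pressure load began. Levels are CPM scaled by edgeR's TMM factors, and each log2 fold change is given ± its standard error. No gene passed the threshold in any of the 5 contrasts of edgeR's quasi-likelihood test (Benjamini-Hochberg adjusted p under 0.05). This means 0 of 15400 genes (0%) and 0 of the 8 proteoglycan genes whether 2w, 5w, 8w or 11w was set against 0w, or 8w with 11w against 0w with 2w. Unadjusted p-values under 0.05 were found for 1689, 1489, 1431 and 1200 genes in the 4 contrasts with 0w, in order of stage (11%, 9.67%, 9.29% and 7.79%), and for 1516 in the last (9.84%). DESeq2, run on the same sums, called 451, 286, 286, 224 and 252 genes and none of the 8. In simulated counts for the last contrast, edgeR called 0% of genes changed 2-fold and 16% of those changed 4-fold, and the contrasts with 0w alone were not simulated. Each value below is a measured difference that did not pass the test.

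Bgn had a higher mean at each later stage than at 0w. Its levels were 329 and 458 CPM in the 0w mice, 727 and 701 in those of 2w, 531, 1364 and 623 in those of 5w, 441, 971 and 1200.2 in those of 8w and 874 and 1014 in those of 11w. The 2 mice at 2w and the 2 at 11w lay above both 0w mice, orders that 20.2% and 20.1% of the 15400 genes had. Of the 8w mice, 1 at 441 CPM lay between the 0w mice. The log2 fold change against 0w was 0.86 ± 0.51 for 2w, 1.09 ± 0.48 for 5w, 1.14 ± 0.48 for 8w and 1.26 ± 0.51 for 11w, with adjusted p of 0.534, 0.503, 0.511 and 0.599 by edgeR. Without the second 5w mouse, at 1364 CPM, the 5w value was 0.60, and without both mice of plate F it was 0.45. Within subclusters the order of 11w and 0w was not uniform. In FB1 the 11w mouse with at least 10 cells had 284 CPM of Bgn, without TMM factors, against 278 and 458 at 0w. In FB2 the 11w mice had 824 and 857 CPM, against 434 and 423 at 0w. In FB4 the 11w mouse with at least 10 cells had 709 CPM, against 294 and 447 at 0w. The share of thinned FB cells with a Bgn UMI was 51.1 and 47.4% in the 11w mice, against 22.5 and 25.5% in the 0w mice. Mitochondrially encoded genes took 54.3 and 58.2% of UMIs in the FB cells of the 11w mice, against 40.6 and 34% in those of 0w. The median depth was 6776 and 4961 non-mitochondrial UMIs per FB cell at 11w, against 32510 and 30951 at 0w, and the part of either in the difference was not tested.

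Lum had its highest level at 2w. It had 655 and 370.2 CPM in the 0w mice, 1703 and 2698 in those of 2w, 1189, 1099 and 1438 in those of 5w, 1187, 1144 and 304 in those of 8w and 702 and 492 in those of 11w. Both 2w mice lay above all 10 others on this scale, an order whose share among all genes was not counted. The groups of 2w and 0w did not overlap, and 20.2% of the 15400 genes had both 2w mice above both 0w mice. Without TMM factors the first 2w mouse, at 1474 CPM, lay below 2 of the 5w mice, at 1611 and 1521 CPM, and the groups of 2w and 0w still did not overlap. The log2 fold change was 2.10 ± 0.55 for 2w (adjusted p = 0.409 by edgeR, 0.0639 by DESeq2), 1.28 ± 0.50 for 5w, 0.78 ± 0.49 for 8w and 0.22 ± 0.53 for 11w. Without a filter on low counts the adjusted p at 2w was 0.0257. The 8w value was 0.44 to 1.25 with 1 mouse left out, lowest without the second and highest without the first 0w mouse. The thinned share of cells with a Lum UMI was 53.1 and 61.6% at 2w, against 30.8 and 19% at 0w. One cell gave 23% of the Lum UMIs of the second 2w mouse.

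The same order of 2w and 0w was seen within subclusters that both stages held. In FB2 the 2w mice had 1324 and 2347 CPM of Lum, without TMM factors, against 664 and 249 in the 0w mice. In FB1 the 2w mouse with at least 10 cells had 1117 CPM, against 412 and 417 at 0w. In FB4 the 2w mouse with at least 10 cells had 1542 CPM, against 776 and 428 at 0w. No test was made within subclusters.

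Aspn was likewise highest at 2w. It had 662 and 584 CPM in the 0w mice, 1539 and 1755 in those of 2w, 468, 807 and 969.6 in those of 5w, 506, 1289 and 290.4 in those of 8w and 522 and 1048 in those of 11w. The 2w mice lay above all others, an order not counted over all genes, and the later stages overlapped 0w. Of the 15400 genes, 20.2% had both 2w mice above both 0w mice. The log2 fold change was 1.4 ± 0.58 at 2w (adjusted p = 0.432 by edgeR) and 0.16 to 0.33 at the later stages. With cells thinned to 1000 UMIs, which gives each cell the same weight, it was 0.77 at 2w. One cell held 25.1% of the Aspn UMIs of the first 2w mouse and 35.2% of those of the second. In FB2 the groups overlapped, with 999.5 and 492.8 CPM in the 2w mice, without TMM factors, against 729 and 846 CPM in the 0w mice. Of the 2w mice, 1 had at least 10 cells in FB1 and the other in FB4, with 1170.0 CPM in FB1, against 428 and 442 CPM at 0w, and 1086 CPM in FB4, against 689 and 509.5 CPM at 0w. In FB3, which no 0w mouse filled with 10 cells, the 2w mice had 2396 and 2143 CPM. The share of thinned cells with a UMI was 36.9 and 34.3% at 2w, against 23.3 and 21.9% at 0w.

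Ogn had 664 and 654 CPM in the 0w mice, 1712 and 946 in those of 2w, 1321, 949 and 1327 in those of 5w, 1551, 1893 and 394 in those of 8w and 786 and 1129 in those of 11w. The 0w mice lay below all later mice except 1 of 8w, at 394 CPM. Its log2 fold change was 1.01 ± 0.55, 0.86 ± 0.51, 0.96 ± 0.51 and 0.54 ± 0.55 in order of stage, with adjusted p of 0.504 to 0.868 by edgeR. Thinned to 1000 UMIs per cell, the 2w value was 0.54. The 2w value was 0.50 without the first 2w mouse, the 8w value 0.53 without the second 8w mouse and the 11w value 0.31 without the second 11w mouse. Every mouse of the stage lay above both 0w mice for Bgn, Aspn, Lum and Ogn at 2w (4 of 8 genes, beside 20.2% of the 15400 genes), for Bgn, Lum, Prelp and Ogn at 5w (4 of 8, beside 11.3%), for none of the 8 at 8w (beside 10.2%) and for Bgn, Fmod, Prelp and Ogn at 11w (4 of 8, beside 20.1%).

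Dcn varied less between stages. It had 18065 and 14862 CPM in the 0w mice, 17789 and 16073 in those of 2w, 16504, 8153 and 11028 in those of 5w, 17271, 13419 and 14881 in those of 8w and 13748 and 9800.2 in those of 11w. The log2 fold change was 0.040 ± 0.33 for 2w, -0.47 ± 0.30 for 5w, -0.12 ± 0.30 for 8w and -0.48 ± 0.33 for 11w (adjusted p 0.604 to 0.979 by edgeR). Both 11w mice, 2 of 3 mice at 5w and 1 of 3 at 8w lay below the 0w mice. The share of all genes with both 11w mice below 0w was not counted, while 20.1% of the 15400 genes had both above. The 2 lower 5w mice are those of plate F, and without that plate the 5w value was 0.020. In the 11w mice, without TMM factors, FB cells of plate K had 8829 and 7043 CPM and those of plate L 16963 and 15337 CPM, against 18284 and 15151 CPM on plate B in the 0w mice. On plates with under 50% CM and without plate K, the 11w value was -0.14. Without the second 11w mouse it was -0.20. The 95% interval at 11w ran from -1.19 to 0.23, so a difference of 2-fold in the lower direction is not outside it.

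Prelp had 193 and 304 CPM in the 0w mice, 378 and 257 in those of 2w, 364, 379 and 509 in those of 5w, 273, 253 and 460.2 in those of 8w and 314 and 511 in those of 11w. All 3 mice at 5w and both at 11w lay above the 2 mice of 0w, as for 11.3% and 20.1% of the 15400 genes. The log2 fold changes were 0.75 ± 0.44 and 0.73 ± 0.47 (adjusted p = 0.580 and 0.752 by edgeR). Leaving out 1 mouse gave 0.50 to 1.17 at 5w, lowest without the first and highest without the second 0w mouse, and 0.40 to 1.14 at 11w, lowest without the second 11w and highest without the second 0w mouse. Fmod had 5.17 and 13.2 CPM in the 0w mice, 3.4 and 12.6 in those of 2w, 13.8, 36.4 and 0.724 in those of 5w, 0.0914, 44.8 and 14.4 in those of 8w and 21.8 and 55.5 in those of 11w. Its fold change at 11w, 2.07 ± 1.77, had an error of nearly its own size, adjusted p was 0.842 by edgeR, and without the second 11w mouse it was 1.3. Without FB9 the 11w mice had 19.2 and 47 CPM of Fmod, not TMM-scaled, against 1.83 and 10.9 in the 0w mice, and the 2 mice of 5w with FB9 cells had 0 and 1.45, where they had 13.8 and 53.3 with it. Omd had 57 and 7.41 CPM in the 0w mice, 29.4 and 21.9 in those of 2w, 23.4, 0.846 and 75.3 in those of 5w, 85.5, 1.91 and 87 in those of 8w and 40.2 and 32.5 in those of 11w, and its stages overlapped throughout. Omd rested on single cells in several mice, with 99.4% of its UMIs in 1 cell in the third 8w mouse and 82.7% in the third 5w mouse.

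**Figure D3:**
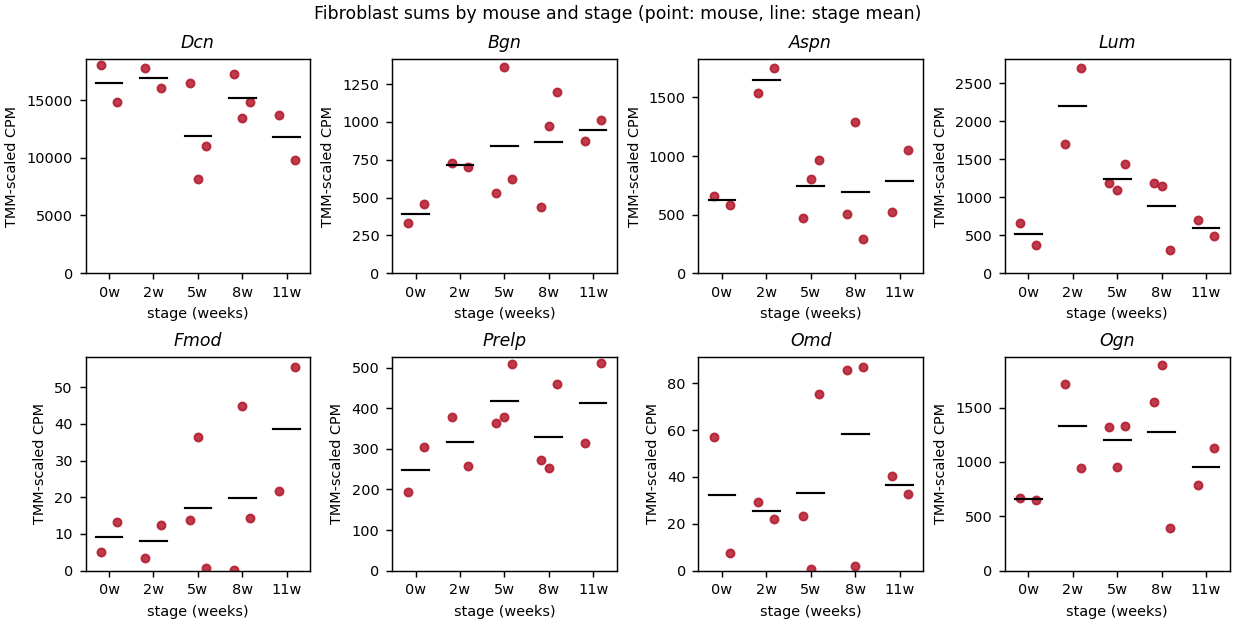
TMM-scaled CPM of each gene in the fibroblast sum of each mouse, by stage; points are the 12 mice with at least 10 FB cells and lines are stage means. The 2w mice stand above the rest for Lum and Aspn, and Bgn is lowest at 0w on average.

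Across the 8 genes, the fold change against 0w was above 0 for 6, 7, 7 and 7 of them in order of stage, where 49.3%, 50.7%, 52.4% and 47.1% of all 15400 genes were above 0. Their median was 0.61, 0.81, 0.82 and 0.44 in order of stage, beside -0.011, 0.024, 0.080 and -0.076 over all genes. The 4 contrasts share the 2 mice of 0w, so they are not independent of each other. For 8w with 11w against 0w with 2w, 5 of 8 were above 0 (49.5% of all genes) and the median was 0.32 (-0.013 over all genes). In that contrast Bgn had 441 to 1200.2 CPM in the 5 mice of 8w and 11w and 329 to 727 in the 4 of 0w and 2w, with a log2 fold change of 0.77 ± 0.35 (adjusted p = 0.490 by edgeR). Lum had 304 to 1187 CPM in the later mice and 370.2 to 2698 in the earlier ones, with -0.55 ± 0.36 (adjusted p = 0.645), or -0.70 to -0.29 with 1 mouse left out. The later and earlier mice overlapped for all 8 genes, while 2.56% of all genes had groups that did not overlap and 0.916% had all later mice above all earlier ones. None of the 8 was above both 0w mice in every later mouse, an order that 1.85% of all genes had.

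**Figure D4:**
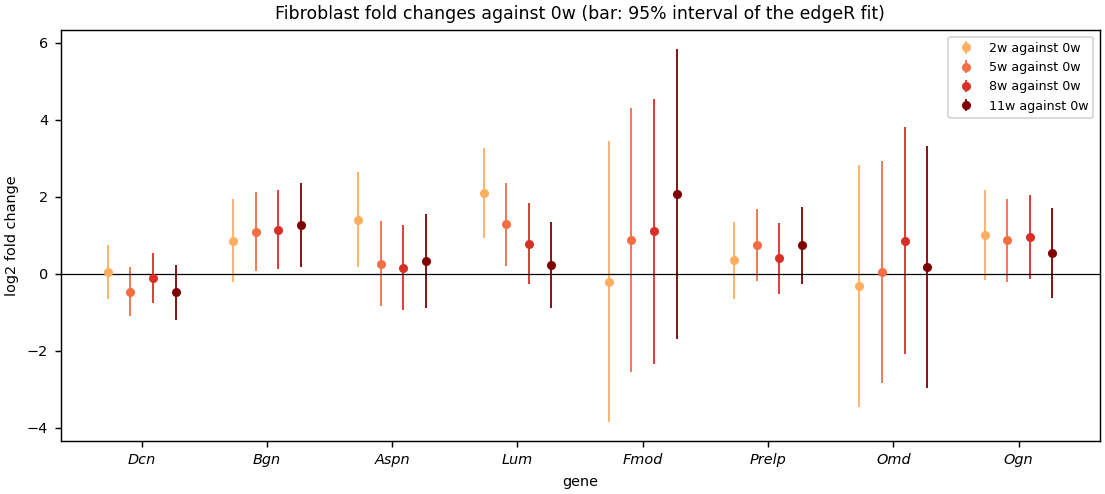
Log2 fold change of each gene in fibroblast sums of each later stage against 0w, with 95% intervals from the edgeR fit. Intervals for Bgn lie above 0 at 5w, 8w and 11w those for Lum at 2w and 5w and that for Aspn at 2w, before adjustment for the 15400 genes tested, and those for Fmod and Omd span several log2 units.

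Plate E, which held 218 FB cells of 1 mouse at 5w and 137 of 1 mouse at 8w, allows both stages to be set side by side within 1 plate, with no replicate. Lum was 1187 CPM in the 8w mouse and 1189 in the 5w mouse, Bgn 441 and 531, Ogn 1551 and 1321, and Dcn 17271 and 16504. Omd was 85.5 and 23.4 CPM. For Bgn this plate holds the lowest value of each of the 2 stages. No batch-wise value could be had for the other stages, whose plates hold 1 stage each.

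In 8 mice, FB cells came from 2 plates, one with many annotated cardiomyocytes (plates A, C, J and K, with 43.1% to 86.5% CM) and one with few (B, D, I and L, with 0.826% to 15.9%). This comparison was made after the values were seen, is a description with no test, and uses CPM without TMM factors. Dcn was lower on the plate with more cardiomyocytes in 8 of 8 mice, at 2895 to 9514 CPM (median 5479) on the plate with more cardiomyocytes and 13816 to 18284 (median 15531) on the other. Bgn was lower there in 8 of 8 mice as well, at 117 to 924 CPM (median 443) on the plate with more cardiomyocytes and 332 to 1368 (median 798) on the other. Of the 15400 genes, 3.56% were lower on that plate in all 8 mice and 1.45% were higher in all 8. Lum was lower in 7 of 8 mice, Aspn, Ogn and Prelp in 6 of 8 each, Omd in 7 of 8 and Fmod in 4 of 8.

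As an example, the first 0w mouse had 4674 CPM of Dcn in 8 FB cells on plate A and 18284 in 112 on plate B, and the second 11w mouse had 7043 CPM in 182 cells on plate K and 15337 in 156 on plate L. In the same FB cells, 8 summed cardiomyocyte markers came to 6928 to 51813 CPM on the plate with more cardiomyocytes and 663 to 2793 on the other. Mitochondrially encoded genes took 41.4% to 80.6% of UMIs on plates with more cardiomyocytes and 11.4% to 39% on the other plates. The part of either in the lower Dcn and Bgn levels was not tested, and the labels do not say which plate received which digestion. Only FB cells of plates with under 50% CM gave a log2 fold change of Lum at 2w of 2.17 and of Bgn at 11w of 1.25, with adjusted p of 0.421 and 0.627 by edgeR.

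**Figure D5:**
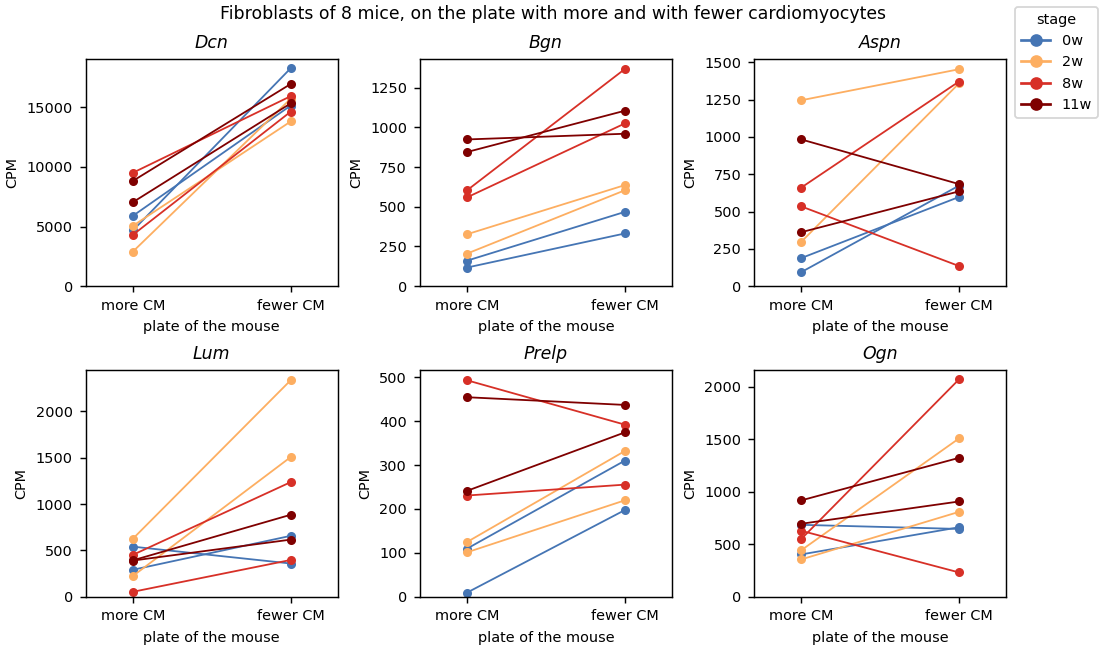
CPM in the FB cells of 8 mice on the plate with more and the plate with fewer annotated cardiomyocytes; each line joins the 2 plates of 1 mouse and colour gives the stage. Every line of Dcn and of Bgn runs lower on the plate with more cardiomyocytes.

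In the other types, levels at 8w and 11w were set against 0w and 2w in the same way. The fits called 0 of 14401 genes in EC, 0 of 13210 in MP, 0 of 11352 in T and 1 of 15131 in CM (0%, 0%, 0% and 0.00661%), and none was a proteoglycan gene. Unadjusted p-values under 0.05 were found for 1330, 837, 1456 and 1382 genes (9.24%, 6.34%, 12.8% and 9.13%). Bgn had a log2 fold change of 1.24 ± 0.70 in EC, 1.31 ± 0.88 in MP, 1.49 ± 1.04 in T and 1.19 ± 0.63 in CM (adjusted p 0.551 to 0.948 by edgeR). In T cells Bgn was 66.6 to 132 CPM in the 4 mice of 8w and 11w and 14.2 to 65.4 in the 4 of 0w and 2w, groups that did not overlap, as for 6.9% of the 11352 genes. Aspn had -1.78 ± 1.04 in EC, -1.43 ± 1.04 in MP, -3.68 ± 1.50 in T and 0.15 ± 0.59 in CM. The types come from the same mice and wells of the same plates, so they are not independent.

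Whether the change in FB differed from that in EC, MP or CM was tested by the interaction of type and stage, with mouse as a block. No gene passed for EC, MP or CM (0 of 16997, 17752 and 18367, 0% each, by edgeR), with 692, 914 and 1009 genes at an unadjusted p under 0.05 (4.07%, 5.15% and 5.49%). The FB change of Bgn minus that of EC was -0.45 ± 0.47 over 11 mice, minus that of MP -0.42 ± 0.60 over 12, and minus that of CM -0.24 ± 0.49 over 10. Against EC, Fmod had the only member's unadjusted p under 0.05, with a difference of 3.78 ± 1.76 (unadjusted p = 0.0456, adjusted p = 1 by edgeR). For Lum the difference from EC was -1.57 ± 0.80. These intervals do not show that the types changed alike.

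Genes around the proteoglycans were described in the same fibroblast sums, for 8w with 11w against 0w with 2w unless another stage is named. None of the lists had a member past the threshold in either direction. In this contrast 49.5% of the 15400 genes lay above 0. Of 10 other genes of the family, 5 were high enough to test and 3 of these lay above 0. Podn (podocan) had 1.86 ± 0.81, with means of 4.28, 9.88, 32.1, 25.1 and 22.1 CPM from 0w to 11w (adjusted p = 0.478 by edgeR). Tsku (tsukushi) had 2.12 ± 1.22 and Chadl (chondroadherin-like) -2.43 ± 1.16, both below 20 CPM at every stage.

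Of 13 collagen genes, whose fibrils carry the proteoglycans, 12 were tested and 5 lay above 0, with a median of -0.24. At 2w against 0w, 11 of the 12 were above 0 with a median of 1.10, beside 49.3% of all genes above 0. Col3a1, the collagen III chain, averaged 4972 CPM at 2w and 887 at 0w. It was also among the 3 genes most like Aspn over the 12 mice (r = 0.886, a description). Col6a2 had -1.39 ± 0.33, Col5a3 -1.68 ± 0.59 and Col12a1 3.06 ± 1.09 (adjusted p = 0.351, 0.406 and 0.418 by edgeR). The genes most like Bgn were Fbln2 (r = 0.885), which encodes the matrix protein fibulin-2, Dkk3 (r = 0.873) and Mxra7 (r = 0.831), and those most like Ogn were Mmp23, Fez2 and Slc44a1 (r = 0.853 to 0.884). For Dcn they were Plekhh2, Gabarapl2 and Ankrd12 (r = 0.905 to 0.955), for Aspn also Ndrg3 and Ddost, for Lum Ptov1, Amz2 and Birc6, for Prelp Fam46c, Nucb1 and Stt3a, and for Omd Snap47, Zranb1 and Blzf1.

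Of 22 enzymes that build chondroitin or dermatan sulphate chains, 18 were tested, 9 were above 0 and the median was 0.15. B4galt7, which adds the first galactose of the linker, had 2.87 ± 1.18, while the sulphotransferase genes Chst11 and Chst7 had 2.71 ± 1.13 and -3.22 ± 1.18. Of 11 enzymes of keratan sulphate, 9 were tested, 5 were above 0 and the median was 0.015; Chst4 had -4.87 ± 1.81, B3gnt2 3.13 ± 1.37 and Chst1 1.49 ± 1.29. Among 14 ligands and receptors that members are known to bind, 13 were tested, 7 were above 0 and the median was 0.27. Tgfb1 had 2.68 ± 1.16, its receptor gene Tgfbr1 1.32 ± 0.56 and Egfr, a receptor that decorin binds, -1.49 ± 0.61 (adjusted p 0.447 to 0.478 by edgeR). Among 15 proteases that cut the core proteins or collagen precursors, and their enhancers, 12 were tested, 4 were above 0 and the median was -0.44, with Mmp9 at -0.98 ± 0.36, Adamts5 at -0.69 ± 0.31 and Mmp3 at 1.29 ± 0.71.

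Of 14 genes of activated fibroblasts, all were tested and 13 lay above 0, with a median of 2.02, beside 49.5% of all genes above 0. Comp, a matrix protein of cartilage and scar, averaged 238 CPM at 8w and 361 at 11w, against 1.03 at 0w and 3.67 at 2w, with 7.20 ± 1.15 (adjusted p = 0.0925 by edgeR). Timp1, an inhibitor of matrix proteases, had 2.26 ± 0.71 and Ddah1 3.73 ± 0.90 (adjusted p = 0.404 and 0.351). Comp and Thbs4 of this list also stand among 7 markers of tendon and valve cells. Their summed level was 98.5 to 618 CPM at 8w and 611 to 988 at 11w, against 13 to 25.1 at 0w and 39.8 to 291 at 2w. At 5w it was 4.59 to 75.6 CPM. At 2w against 0w, 13 of the 14 activation genes were above 0 with a median of 2.52, beside 49.3% of all genes above 0. At 5w against 0w, 7 of the 14 were above 0 with a median of 0.12, beside 50.7% of all genes.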

How the data were processed

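Single cells of the left ventricle of 16 mice were measured, and the authors deposited whole-number UMI counts per gene and cell, not normalized, with a table of each cell's mouse, type and subcluster. The submitters' processing notes name the tools Subread 1.4.6-p1, featureCounts and STAR 2.5.2b and the builds GRCh37 and mm10, with no role for any. Annotation, strand and UMI collapsing are not stated there. The deposited annotation was used as it stands, with no filter on cells and no call of doublets, and 3 cells with no type were left out. Non-mitochondrial totals equalled the authors' UMI numbers on 9 of 12 plates (not G, H and K).

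From these counts, sums per mouse and type were made without the 34 mitochondrially encoded genes, for mice with at least 10 cells. They were fitted with edgeR 4.0.16 in R 4.3.3 (filterByExpr, TMM, glmQLFit with robust dispersion, two-sided glmQLFTest, 1 fit per type over all stages, no covariate), with Benjamini-Hochberg adjustment over all genes tested and a threshold of 0.05. Each mouse was 1 replicate. DESeq2 1.42.0, RLE factors, no low-count filter, mitochondrial genes kept, at least 20 cells, cells thinned to 1000 UMIs (seed 20), selections of plates, a replicate block and leaving out each mouse were alternatives. The fit was tested on simulated data. Other values used Python 3.11.15, numpy 2.4.6, scipy 1.17.1, pandas 2.3.3 and matplotlib 3.10.9.

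The 8 genes and the gene lists were chosen with earlier results of these data known. Named besides the 8 were, for each, the 3 genes with the highest correlation of log2 CPM over the fibroblast sums (average log2 CPM of at least 5, no predicted, mitochondrial or ribosomal protein genes) and, per list, the 3 genes with the smallest p for 8w with 11w against 0w with 2w; the mesothelial and fibroblast markers of FB9 and Col3a1 at 2w were added after values were seen. Promoter windows came from RefSeq (GRCm38.p6), which had entries for 6 of the 8 genes. Columns of other samples numbered 0.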

Additional observations from a re-analysis of the deposited data

Results flagged for a closer look

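In 11 of 79 groups of 4 or 5 mice, 1 mouse stood further from the nearest other than Dixon's limit allows, and chance gives about 5% of groups. None of the 11 is in fibroblasts. In CM at 8w and 11w, the 8w mouse of plate E was the highest for 4 genes. For Dcn it had 3349 CPM, where the other 4 mice had 659.8 to 1022, and for Aspn 329 CPM, where the other 4 mice had 36.7 to 69.4. For Lum it had 445 CPM, where the other 4 mice had 17.3 to 68.5, and for Ogn 482 CPM, where the other 4 mice had 51.9 to 147.

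In MP, Aspn reached 200.5 CPM, where the other 4 mice had 6.14 to 30, in an 11w mouse, and 276 CPM, where the other 3 mice had 50.2 to 73.9, in a 2w mouse. Fmod in MP reached 10.8 CPM, where the other 4 mice had 0 to 2.94, in the second 11w mouse. Omd in EC reached 8.2 CPM, where the other 4 mice had 0 to 1.56, in that mouse as well. In T cells, Ogn reached 227 CPM, where the other 3 mice had 4.82 to 33.4, in an 11w mouse. Fmod reached 28.9 CPM, where the other 3 mice had 0, and Omd 7.44 CPM, where the other 3 mice had 0, each in 1 mouse of 8w. These levels are not TMM-scaled.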

How the results depend on the processing

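Contrasts are listed in the order 2w, 5w, 8w and 11w against 0w, then 8w with 11w against 0w with 2w, where the edgeR fit called 0 genes in fibroblasts. That count was also 0 throughout with RLE size factors, with mitochondrial genes kept, with at least 20 cells per mouse, on plates whose totals equal those of the authors, and on the 3 selections of plates chosen after seeing the data (under 50% CM, the same without plate K, and without plate F). It was 46, 41, 68, 44 and 89 with no filter on low counts, 10, 1, 0, 14 and 6 with cells thinned to 1000 UMIs, 2, 3, 6, 8 and 9 without plate E, and 451, 286, 286, 224 and 252 with DESeq2. Leaving out 1 mouse gave 0 to 0, 0 to 2, 0 to 4, 0 to 1 and 0 to 8 called genes; the counts above 0 came without the 5w mouse of plate E (2) or the 8w mouse of plate E (4, 1 and 8). With no filter on low counts, 57 genes were called in EC, 13 in T and 154 in CM, and 11, 2 and 14 for the difference of FB from EC, MP and CM; with RLE factors the CM count was 0. The replicate number as a block gave 0, 0, 0, 0 and 0. Of 21 pairs of mice with the same number, 1 had a correlation of deviations over 0.1 (range -0.016 to 0.126). That pair was the first 5w mouse and the first 8w mouse, which share plate E. In stages of 2 mice the deviations mirror each other, so the 21 values are not independent. They gave no sign of a pairing by number beyond that plate, and do not exclude one.

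Of the members' fold changes, Lum at 2w against 0w, at 2.07 with no filter on low counts (adjusted p = 0.0257), was the 1 value past the threshold; its adjusted p was 0.0639 to 0.479 elsewhere, leave-one-out fits aside. Signs differed from those reported as follows: with cells thinned to 1000 UMIs Dcn was -0.15 (2w against 0w); with the replicate number as a block Omd was 0.64 (2w against 0w), Omd was -1.37 (5w against 0w), Omd was -0.23 (8w against 0w); without plate F Dcn was 0.020 (5w against 0w), Aspn was -0.40 (5w against 0w), Omd was -0.44 (5w against 0w); with no filter on low counts Omd was -0.0055 (5w against 0w); on plates with under 50% CM Dcn was 0.038 (8w against 0w); on those plates without K Dcn was 0.040 (8w against 0w), Aspn was -0.032 (11w against 0w); on plates whose totals equal those of the authors Aspn was -0.087 (11w against 0w). Leaving out 1 mouse turned a sign within these ranges of log2 fold change: Dcn -0.098 to 0.17 (2w against 0w); Fmod -1.43 to 0.61 (2w against 0w); Omd -1.15 to 1.77 (2w against 0w); Fmod -0.30 to 1.78 (5w against 0w); Omd -1.35 to 2.18 (5w against 0w); Dcn -0.24 to 0.026 (8w against 0w); Aspn -0.67 to 0.54 (8w against 0w); Fmod -0.39 to 1.96 (8w against 0w); Aspn -0.20 to 0.73 (11w against 0w); Lum -0.079 to 0.73 (11w against 0w); Omd -0.59 to 2.33 (11w against 0w). The cause was not tested. Dcn at 5w stood at -0.47 before plate F was left out. At 500 in place of 1000 UMIs per cell, shares of cells with a UMI were lower, as their construction gives. Depth limits detection beyond Fmod and Omd. Thinning to 1000 UMIs lowered the share of FB cells with a UMI from 83.3 to 40.2% for Bgn and from 3.94 to 1.2% for Fmod. Fmod and Omd also rested on few cells, since 10 FB cells held 61.1% and 62.2% of their UMIs. Stages with 2 mice limit every comparison with 0w.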

Other observations

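The number of the 8 genes seen in a single fibroblast was counted at 1000 UMIs, a depth that limits it. Among 1752 FB cells thinned to 1000 UMIs, 16.7% had a UMI of 1 of the 8 genes, 31.2% of 2, 27.6% of 3, 16.6% of 4 and 6.22% of 5. No cell had 7 or 8, which this depth does not allow to be read as absence. At full depth, Dcn was detected in 99.5% of FB cells, Bgn in 83.3%, Lum in 72.1% and Ogn in 64.5%. Aspn was detected in 52.6%, Prelp in 48.1%, Omd in 6.2% and Fmod in 3.94%. Genes per cell were not counted at full depth.

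The 4 mice of 5w on plates G and H, with 3 to 8 FB cells each, entered no comparison. Their Dcn levels were 7441, 9147, 2322 and 16012 CPM of non-mitochondrial UMIs, and their Bgn levels 616, 233, 263 and 266. Lum stood at 416, 864, 70.1 and 152 CPM and Ogn at 502, 919, 263 and 1690.4 in the same mice.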
